A study of Danio rerio with 6 samples.

Results

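Granins and the neuropeptides stored with them were followed in neuroblastomas of transgenic zebrafish. The genes were taken by symbol from the deposited count table: the chromogranin genes chga and chgb, the secretogranin genes scg2a, scg2b, scg3 and scg5, and the neuropeptide genes npy and vip2. Of these 8 symbols, 7 were present among the 14781 of the table, 6 of them passed the filter on low counts, and scg2a was not analysed here. The knockout tumours came from fish that overexpress MYCN and carry a knockout of gas7 (3 libraries), and the MYCN-only tumours from fish that overexpress MYCN alone (3 libraries). All 6 libraries thus come from fish with the MYCN transgene. They are called tumours 1 to 3 of each genotype after their labelled source, zebrafish tumour. Their labelled tissue is the peripheral sympathetic nervous system, and the series title is about loss of GAS7 and metastasis. The sources used here give neither the age of the fish, the promoter of the transgene nor the mutation of gas7. Nothing in the labels ties each library to a tumour or fish of its own, so the p-values cover the spread between these 6 libraries, which may be technical.

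Chromaffin cells and sympathetic neurons keep catecholamines and peptides in dense-core vesicles, which release their content when calcium enters the cell. Granins are acidic proteins that aggregate in the late Golgi, help such vesicles to form and are themselves precursors of peptides. Prohormone convertases cut granins and neuropeptide precursors inside the vesicle, and carboxypeptidase E trims the ends. In human medicine chromogranin A is a blood marker of neuroendocrine tumours, and tumours of the sympathetic lineage can secrete vasoactive intestinal peptide.

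Knockout tumour 1 held far more of these transcripts than any other library, and the other 2 knockout tumours did not share this. Levels are CPM, counts scaled to a common library size after TMM normalization. They compare one gene between libraries and not one gene with another, because they are not divided by transcript length. In knockout tumour 1 the 6 filtered genes stood between 3.18 times (chgb) and 3629 times (vip2) the mean of the MYCN-only tumours. In knockout tumours 2 and 3, chga, scg2b, scg3 and vip2 lay below every MYCN-only tumour. The 7 genes together took 1.62% of all counts of knockout tumour 1 (95% Wilson interval 1.61% to 1.62%), against 0.025% and 0.0177% in knockout tumours 2 and 3 and 0.0272% to 0.0358% in the MYCN-only tumours. Intervals cover counting error only.

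**Figure D1:**
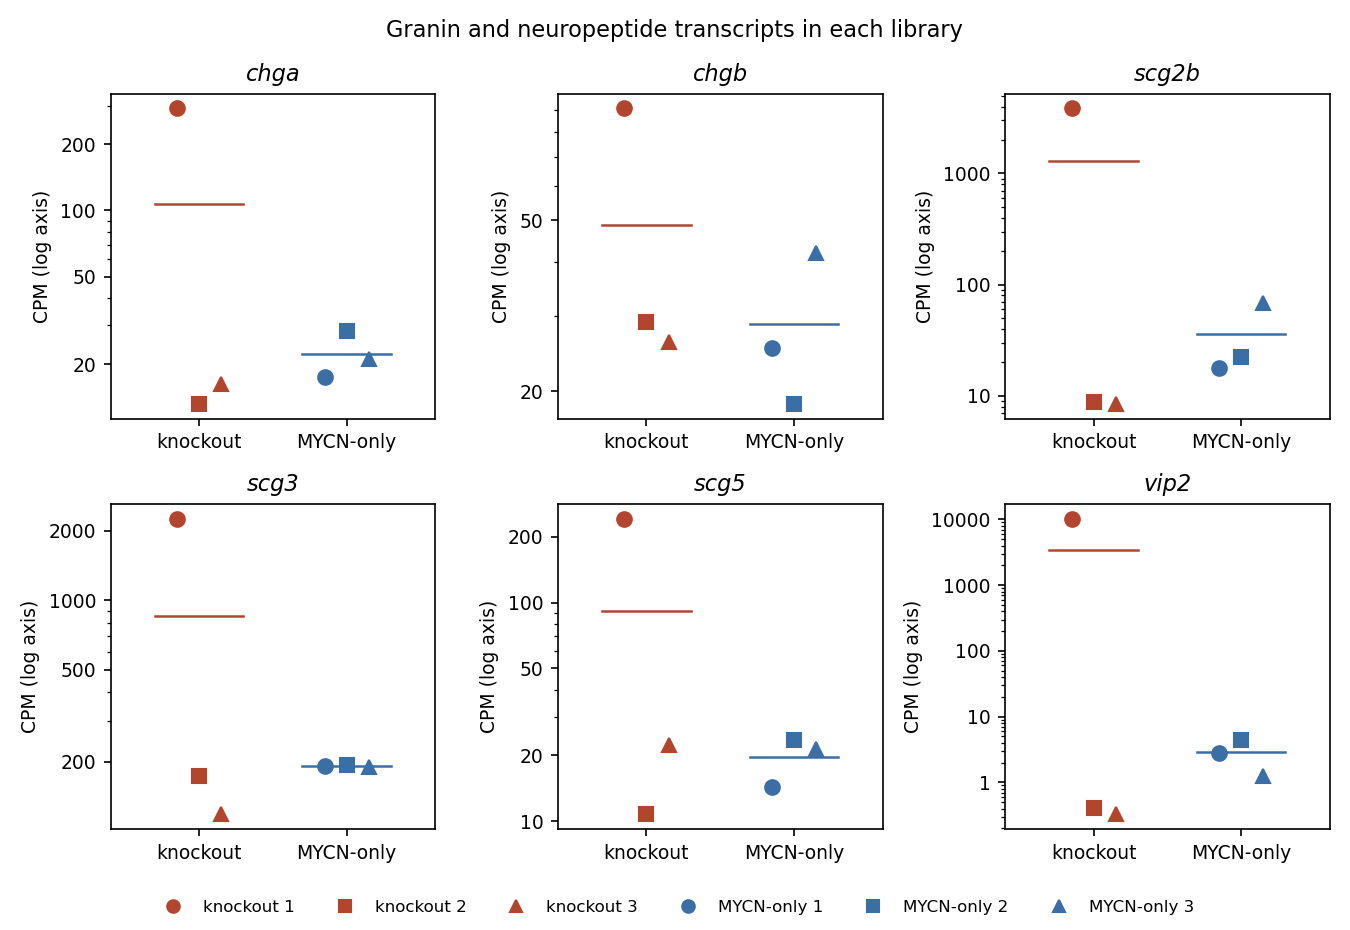
Level of each filtered gene in the 3 knockout (red, left) and 3 MYCN-only (blue, right) libraries, in CPM on a log axis, with symbols for the replicate number and lines for the mean of each genotype. Knockout tumour 1 is the highest point in all 6 panels, while knockout tumours 2 and 3 lie below the MYCN-only tumours for chga, scg2b, scg3 and vip2.

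The vasoactive intestinal peptide gene vip2 varied most. VIP relaxes smooth muscle and drives fluid secretion in the mammalian gut, and sympathetic neuroblasts can make it. RefSeq lists vip2 as a synonym of vipb. It was counted 198918 times in knockout tumour 1, 11 and 10 times in knockout tumours 2 and 3, and 47, 50 and 22 times in MYCN-only tumours 1, 2 and 3. In CPM this is 10327 in knockout tumour 1 and 0.411 and 0.326 in knockout tumours 2 and 3, against 2.82, 4.44 and 1.27 in the MYCN-only tumours. A single gene thus took 0.979% of the counts of knockout tumour 1 (95% Wilson interval 0.975% to 0.984%). The low values rest on few counts, with 95% exact Poisson intervals of 0.205 to 0.735 CPM in knockout tumour 2 and 0.156 to 0.599 CPM in knockout tumour 3. These intervals do not reach the lowest MYCN-only tumour, whose own interval is 0.796 to 1.92 CPM.

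Secretogranin II is the precursor of the peptide secretoneurin, and its gene scg2b showed the next largest spread. It was read at 3856 CPM in knockout tumour 1 and at 8.74 and 8.43 CPM in knockout tumours 2 and 3, against 17.8, 22.6 and 68.8 CPM in MYCN-only tumours 1, 2 and 3. The high and the low knockout tumours therefore lay on opposite sides of all MYCN-only tumours. Within MYCN-only, library 3 stood apart, and the coefficient of variation was 77.4% (n = 3). The summed level of the pancreatic islet genes was also highest there, at 225 CPM against 15.7 and 21.0 CPM in MYCN-only tumours 1 and 2. The hormone genes ins (insulin, at 105 CPM), gcga, gcgb, sst1.1, sst2 and ghrl were highest in MYCN-only tumour 3. For insb this held only among the MYCN-only tumours, at 0.635 CPM, since knockout tumours 2 and 3 had 3.21 and 4.66 CPM. The islet factor genes pdx1, nkx6.1, pax6b and mnx1 were instead lowest in MYCN-only tumour 3 among the MYCN-only tumours. pdx1 was at 1.96 CPM against 6.37 and 7.11 CPM, and arxa and nkx2.2a lay between. In the knockout tumours the islet sum was 9.81 to 13.03 CPM. The part of islet tissue in the scg2b level of MYCN-only tumour 3 was not tested.

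Chromogranin A and B are the main soluble proteins of mammalian chromaffin granules. chga was read at 292 CPM in knockout tumour 1 and at 13.1 and 16.2 CPM in knockout tumours 2 and 3, against 17.4, 28.2 and 21.0 CPM in the MYCN-only tumours. chgb was read at 91.0 CPM in knockout tumour 1 and at 28.9 and 26.1 CPM in knockout tumours 2 and 3, against 25.2, 18.7 and 41.9 CPM in the MYCN-only tumours. For chgb, knockout tumours 2 and 3 lay inside the MYCN-only range, and the excess in knockout tumour 1 was 3.18-fold over the MYCN-only mean, against 13.1-fold for chga.

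Secretogranin III binds chromogranin A and the vesicle membrane in mammals, and its gene scg3 was the steadiest of the group in MYCN-only tumours. It was read at 2263 CPM in knockout tumour 1 and at 174 and 118 CPM in knockout tumours 2 and 3, against 191, 194 and 189 CPM in the MYCN-only tumours. The coefficient of variation within MYCN-only was 1.34%, compared with 24.7% for chga, 42.0% for chgb and 55.8% for vip2 (n = 3 each). The secretogranin 5 gene scg5 encodes 7B2, the chaperone that prohormone convertase 2 needs for its activation. It was read at 242 CPM in knockout tumour 1 and at 10.8 and 22.4 CPM in knockout tumours 2 and 3, against 14.3, 23.6 and 21.3 CPM in the MYCN-only tumours. Knockout tumour 3 lay within the MYCN-only range and knockout tumour 2 below it.

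Neuropeptide Y is stored with noradrenaline in mammalian sympathetic cells, but npy was close to absent here and did not pass the filter. It had 16, 0 and 10 counts in knockout tumours 1, 2 and 3, or 0.831, 0 and 0.326 CPM, and 0 counts in each MYCN-only tumour. A count of 0 allows up to 0.112 CPM in knockout tumour 2 and 0.173 to 0.267 CPM in the MYCN-only tumours (a limit of 3 counts per library, about the one-sided 95% Poisson bound). The difference is thus between traces, and the knockout and MYCN-only tumours overlap at 0.

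The make-up of the group differed between tumours along with its level. Among the counts of the 7 genes, vip2 took 60.5% in knockout tumour 1 (95% Wilson interval 60.3% to 60.7%), 0.174% (0.0974% to 0.312%) in knockout tumour 2 and 0.17% (0.0922% to 0.312%) in knockout tumour 3. In the MYCN-only tumours its share was 0.37% to 1.53%. The share of scg3 was 13.3% (13.1% to 13.4%) in knockout tumour 1, and 73.7% (72.6% to 74.8%) and 61.5% (60.3% to 62.8%) in knockout tumours 2 and 3. In the MYCN-only tumours scg3 took 55.02% to 71.1%. Shares of counts depend on transcript length, so they compare libraries and not genes.

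The genotypes were compared with edgeR's quasi-likelihood test over 12821 genes. None of the 6 filtered genes passed at an adjusted p under 0.05, where 0% of all genes did. The log2 fold change of vip2 was 10.25 (SE 4.04; edgeR adjusted p = 0.245) and that of scg2b 5.15 (SE 2.40; adjusted p = 0.299). For chga it was 2.27 (SE 1.21; adjusted p = 0.348) and for scg5 2.22 (SE 1.13; adjusted p = 0.331). For scg3 it was 2.15 (SE 1.11; adjusted p = 0.336) and for chgb 0.77 (SE 0.58; adjusted p = 0.499). All 6 values were positive, as were 52.4% of those of all genes. At an unadjusted p under 0.05 there was 1 of the 6, vip2, which was higher, where 19.1% of all genes were past it in either direction, 11.5% higher and 7.57% lower. The knockout and MYCN-only tumours overlapped for all 6 genes, whereas they did not overlap for 23.9% of all genes tested. limma-voom gave smaller fold changes, 1.36 for vip2 and 1.0 for scg2b on the log2 scale, and called 0 of the 6 (0.0078% of all genes), and 0 at an unadjusted p under 0.05, where 14% of all genes were. DESeq2 called 0 of the 2 that it gave an adjusted p, chgb and scg5 (9.8% of all genes). It had 1 of these, scg5, past an unadjusted p of 0.05, where 22.3% of all genes were, and returned no p for chga, scg2b, scg3 and vip2.

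The direction of the mean difference rested on knockout tumour 1. Without it, edgeR gave all 6 genes a negative log2 fold change, and 53% of all genes were negative in that fit. The value was -2.92 for vip2 (SE 0.79; edgeR adjusted p = 0.0625), -2.08 for scg2b (SE 0.66; adjusted p = 0.0898), -0.59 for chga (adjusted p = 0.224) and -0.39 for scg3 (adjusted p = 0.259). It was -0.25 for scg5 (adjusted p = 0.703) and -0.06 for chgb (adjusted p = 0.928). None passed, where 14.7% of all genes did, and 2 were lower at an unadjusted p under 0.05, where 13.6% of all genes were. With knockout tumours 2 and 3 left out, all 6 were positive, as were 47.5% of all genes. All 6 were past an unadjusted p of 0.05, where 10.2% of all genes were higher at that level. After adjustment 2 genes passed, vip2 (log2 fold change 11.85, SE 0.73; edgeR adjusted p = 0.0427) and scg3 (3.57, SE 0.18; adjusted p = 0.04), of 9 genes or 0.0682% in all. The other 4 had adjusted p from 0.0629 to 0.205. That fit keeps only knockout tumour 1, the highest library for all 6 genes, so the positive sign follows from the choice of library. It has a lone knockout tumour and assumes that it varies like the MYCN-only tumours, whose spread alone sets the SE. Its p-values and the genes passing therefore do not test the genotype, and its fold changes describe that 1 library. Both fits share the MYCN-only tumours.

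**Figure D2:**
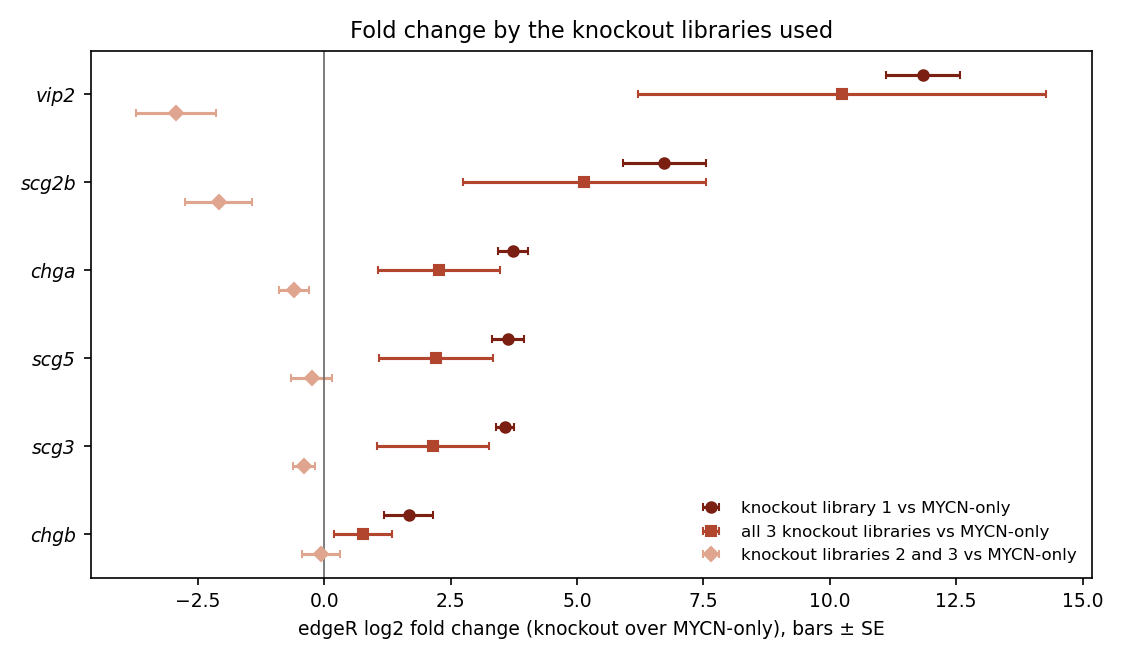
edgeR log2 fold change of knockout over MYCN-only with its SE for the 6 filtered genes, from knockout tumour 1 alone (dark circles), all 3 knockout tumours (squares) and knockout tumours 2 and 3 (light diamonds), each against the 3 MYCN-only tumours. All 6 genes are above 0 in the first and below 0 in the last, and the fit of all libraries has the widest bars for every gene.

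Set against all genes tested, the excess in knockout tumour 1 was extreme for most of the group. The log2 CPM of vip2 in knockout tumour 1 exceeded the MYCN-only mean by 11.94, rank 1 of 12821 genes, and that of scg2b by 6.99, rank 10. chga exceeded it by 3.74 (rank 106), scg5 by 3.64 (rank 121), scg3 by 3.56 (rank 131) and chgb by 1.75 (rank 690). The median over all genes was 0.01. In knockout tumours 2 and 3 the differences of vip2 were -2.37 and -2.63, with 3.04% and 2.54% of all genes lower. Those of scg2b were -1.78 and -1.83, with 5.97% and 6.26% of genes lower. A pattern noticed in the values, knockout tumour 1 above and knockout tumours 2 and 3 both below every MYCN-only tumour, held for 4 of the 6 genes and for 5.6% of all genes. Taken apart, knockout tumour 1 was above every MYCN-only tumour for 6 of the 6 and for 33.8% of all genes, and knockout tumours 2 and 3 were both below for 4 of the 6 and for 24.7%.

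**Figure D3:**
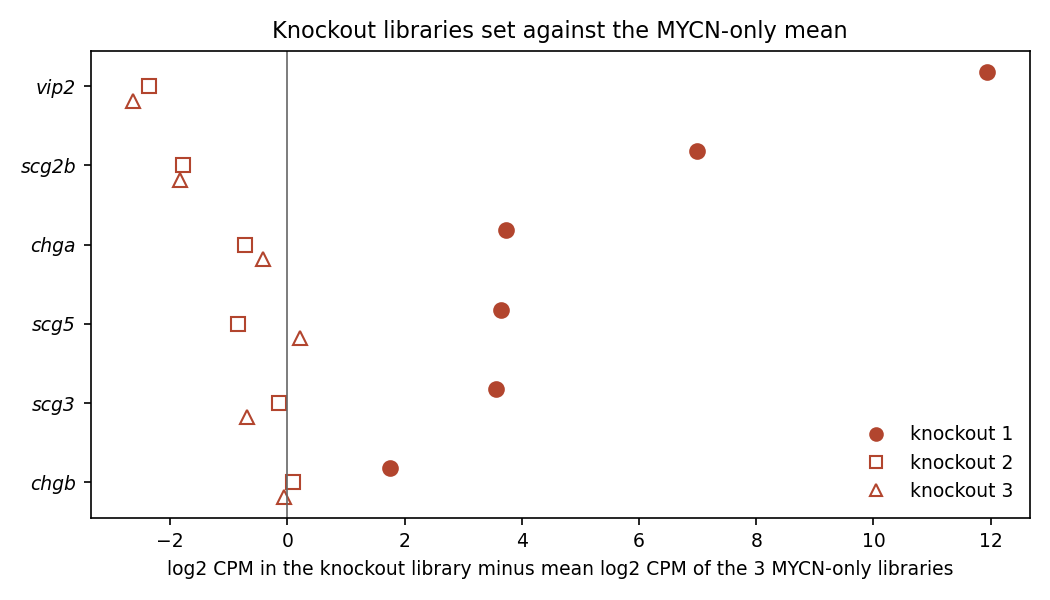
Difference in log2 CPM between each knockout tumour and the mean of the 3 MYCN-only tumours for the 6 filtered genes. Knockout tumour 1 (filled circles) lies between 1.75 (chgb) and 11.94 (vip2), while knockout tumours 2 and 3 (open symbols) lie between -2.63 and 0.22.

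Enzymes that mature peptides in the vesicle were examined next. Of the 12 prohormone processing genes tested, 9 were higher and 3 lower in the knockout tumours, and their median log2 fold change was 0.41 against 0.04 over all genes. Over all genes 52.4% were higher. None of the list passed in edgeR over all libraries, while an unadjusted p under 0.05 was seen for 3 higher and 1 lower gene. At that level 11.5% of all genes were higher and 7.57% lower. The convertase 1 gene pcsk1 was read at 2648 CPM in knockout tumour 1 and at 150 and 194 CPM in knockout tumours 2 and 3, against 86.6, 184 and 76.5 CPM in the MYCN-only tumours. Knockout tumour 1 was thus 22.9-fold above the MYCN-only mean, and pcsk1 was singled out after its values were seen. The carboxypeptidase E gene cpe was at 1379 CPM in knockout tumour 1 and at 241 and 265 CPM in knockout tumours 2 and 3, below the 299 to 490 CPM of the MYCN-only tumours. The convertase 2 gene pcsk2, client of the scg5 product, was lower in every knockout tumour, also in knockout tumour 1. It was read at 1.66, 3.62 and 2.12 CPM in knockout tumours 1, 2 and 3 against 7.27, 13.9 and 13.1 CPM in MYCN-only (log2 fold change -2.2, SE 0.48; edgeR adjusted p = 0.174). The carboxypeptidase D gene cpdb was high in knockout tumours 2 and 3 (83.1 and 109 CPM), as the egg genes were, and at 0.104 CPM in knockout tumour 1, against 0.18 to 0.635 CPM in MYCN-only (edgeR adjusted p = 0.192). The cathepsin L gene ctsla was higher in every knockout tumour, at 1019, 383 and 407 CPM against 196, 328 and 188 CPM (log2 fold change 1.34; edgeR adjusted p = 0.215). Without knockout tumour 1 the median of the list was -0.04.

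Of 48 other neuropeptide and hormone genes measured, 19 passed the filter, with 10 higher and 9 lower and a median log2 fold change of 0.14. None passed in edgeR, and 1 was lower at an unadjusted p under 0.05, where 7.57% of all genes were. That gene was calca, which encodes calcitonin and its related peptide. It was at 0.363, 0.0747 and 0.13 CPM in knockout tumours 1, 2 and 3 against 3.42, 58.2 and 1.85 CPM in MYCN-only. calca passed the low-count filter only through the MYCN-only tumours. Passing it already meant a lower level in knockout, so its direction is not a test beside that share. The appetite peptide gene cart2 followed vip2 in knockout tumour 1, at 400 CPM, with 0.56 and 0.391 CPM in knockout tumours 2 and 3 and 0.356 to 2.88 CPM in MYCN-only. It was the gene next to vip2 in the ranking of knockout tumour 1. Named after their values were seen, npb, vip and pomcb were likewise high in knockout tumour 1, at 268, 92.7 and 16.0 CPM. Their MYCN-only ranges were 1.44 to 9.78, 0.961 to 9.78 and 0 to 2.93 CPM. The excess did not extend to every peptide gene. Somatostatin sst2 was at 0, 0.0747 and 0.847 CPM in knockout tumours 1, 2 and 3 against 0.841, 0 and 37.1 CPM in MYCN-only (edgeR adjusted p = 0.288). The tachykinin gene tac1, also named after its values were seen, was at 3.17 CPM in knockout tumour 1 and within the MYCN-only range of 2.65 to 13.1 CPM. Without knockout tumour 1 the median of the list was -1.31, and with it alone among the knockouts -0.38. Each fit filters anew, so these medians are over 22 and 31 genes, not the same 19.

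**Figure D4:**
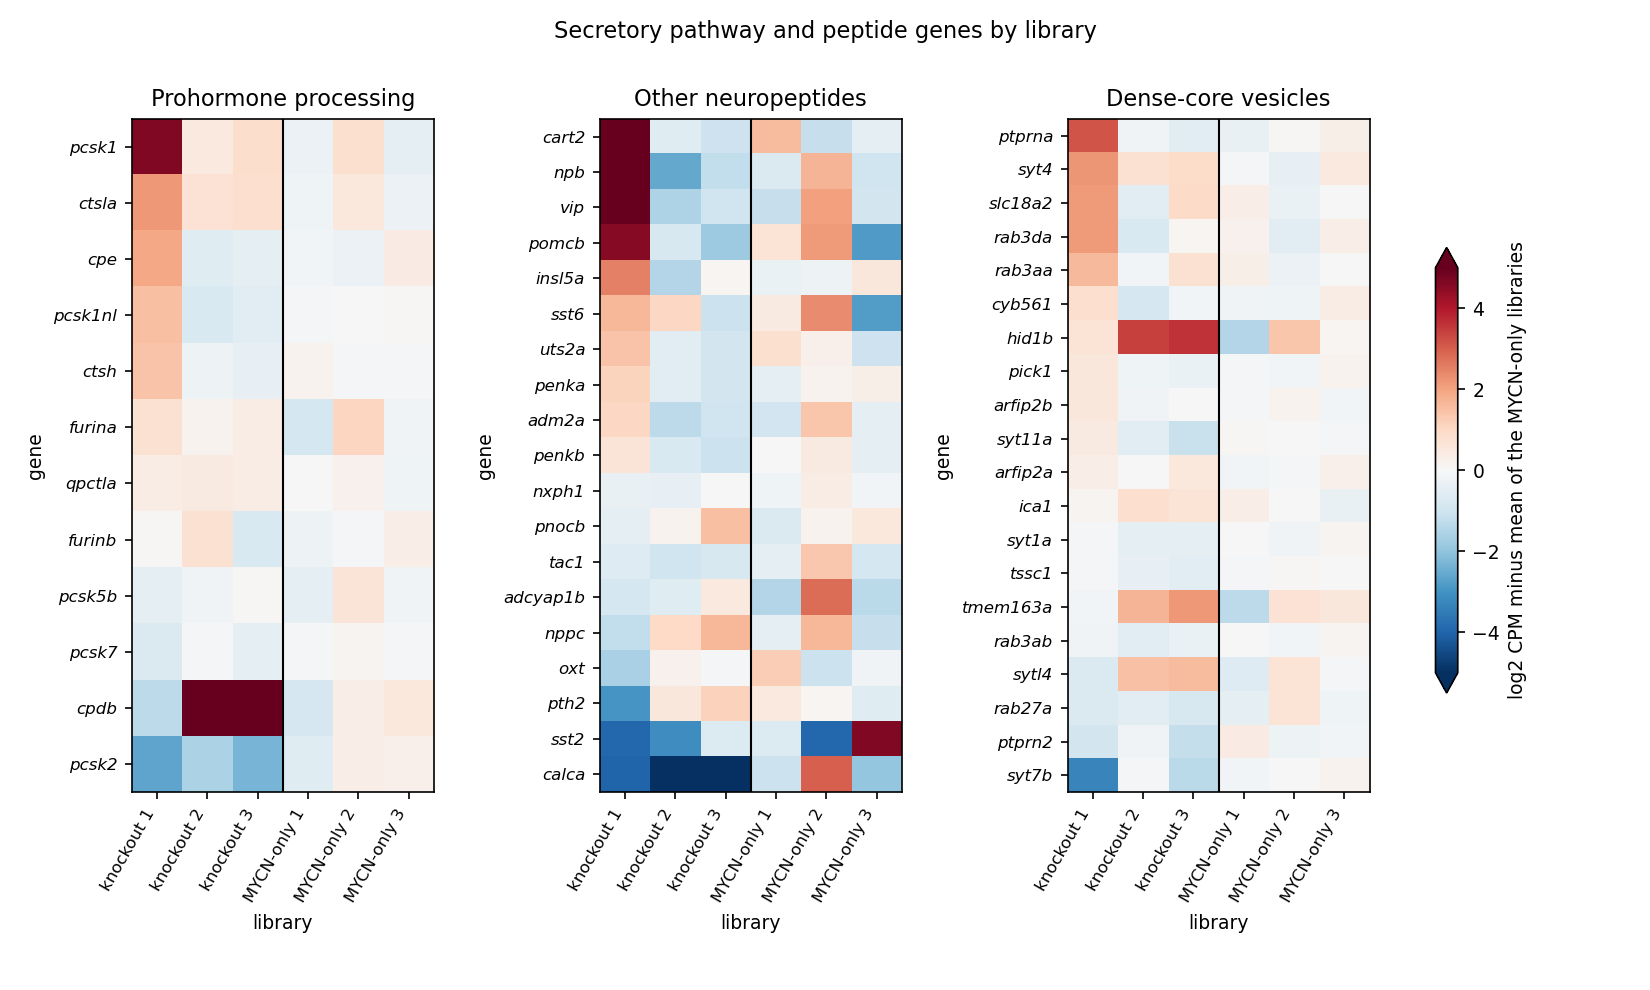
Log2 CPM minus the mean of the MYCN-only tumours for the tested genes of 3 lists, with the knockout tumours left of the line and the MYCN-only tumours right of it; the colour scale ends at -5 and 5. Genes run down each panel by their difference in knockout tumour 1, which leads with pcsk1, cart2 and ptprna, whereas cpdb and hid1b are red in knockout tumours 2 and 3.

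Of 20 dense-core vesicle genes tested, 13 were higher and 7 lower, with a median of 0.23 on the log2 scale. Over all genes 52.4% were higher. In edgeR 0 passed, and 2 were higher at an unadjusted p under 0.05, where 11.5% of all genes were. The calcium sensor gene syt4 was higher in every knockout tumour, at 146, 54.1 and 59.3 CPM against 30.3, 23.5 and 44.5 CPM (edgeR log2 fold change 1.4, adjusted p = 0.211). The vesicle phosphatase gene ptprna, named after its values were seen, was at 1011 CPM in knockout tumour 1 and at 101 and 78.5 CPM in knockout tumours 2 and 3, against 88.9 to 140 CPM. Its relative ptprn2 did not share this, at 139, 232 and 117 CPM against 353, 220 and 240 CPM. hid1b was at 6.8 CPM in knockout tumour 1 and at 45.8 and 51.6 CPM in knockout tumours 2 and 3, against 1.44 to 11.1 CPM in MYCN-only. Without knockout tumour 1 the median of the list was -0.3. Among 12 tested peptide receptors 10 were lower, as were 47.6% of all genes, with a median of -1.02. None passed in edgeR, and 4 were lower at an unadjusted p under 0.05, where 7.57% of all genes were. The VIP receptor genes vipr2 and vipr1b were among these 4. vipr2 was read at 8.05, 4.44 and 5.15 CPM in the knockout tumours against 37.6, 14.5 and 11.4 CPM in MYCN-only (log2 fold change -1.85; edgeR adjusted p = 0.195). vipr1b was read at 1.14, 0.486 and 0.619 CPM against 2.7, 2.67 and 2.19 CPM (log2 fold change -1.75; adjusted p = 0.198). The neurokinin receptor gene tacr1a was read at 29.4, 70.03 and 89.2 CPM against 186, 131 and 146 CPM (log2 fold change -1.3; adjusted p = 0.209). vipr2, vipr1b and tacr1a lay below the MYCN-only range in all 3 knockout tumours, including the library rich in vip2. Of all genes tested, 23.9% did not overlap in either direction. The receptor gene oprd1a, named after its values were seen, went the other way in knockout tumour 1. It was at 15.9, 1.34 and 0.195 CPM in the knockout tumours against 0.24, 0.8 and 0 CPM in MYCN-only. Its relative oprd1b, the last of the 4 lower receptors, did not share this. oprd1b was at 0.104, 1.68 and 0.619 CPM in the knockout tumours against 5.95, 4.0 and 2.31 CPM in MYCN-only.

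Transcription factors known from mammals to act on granin and VIP genes, with related factors, gave 13 of 17 tested genes higher and 4 lower. Over all genes 52.4% were higher. The median log2 fold change of the list was 0.85. None passed in edgeR, while 5 higher and 2 lower ones had an unadjusted p under 0.05. At that level 11.5% of all genes were higher and 7.57% lower. Of the 2 lower ones, insm1b passed the low-count filter only through the MYCN-only tumours. Its direction is therefore not a test beside that share. The orphan receptor gene nr4a1, induced early by cAMP and calcium, was at 361 CPM in knockout tumour 1 and at 31.4 and 36.2 CPM in knockout tumours 2 and 3, against 2.31 to 6.43 CPM. Its log2 fold change was 4.91 (SE 1.17; edgeR adjusted p = 0.174). The AP-1 genes fosab and fosb, named after their values were seen, were at 454 and 78.1 CPM in knockout tumour 1. In knockout tumours 2 and 3 fosab was at 15.7 and 26.3 CPM and fosb at 6.09 and 4.88 CPM, and their MYCN-only ranges were 6.31 to 18.3 and 1.78 to 2.4 CPM. tfap2a, a factor of the sympathetic lineage, was lower in every knockout tumour, at 187, 206 and 200 CPM against 583, 309 and 401 CPM. atf1, a cAMP-responsive factor, was higher in every knockout tumour, at 53.9, 49.9 and 56.5 CPM against 32.0, 37.2 and 28.7 CPM (log2 fold change 0.71; edgeR adjusted p = 0.197). Without knockout tumour 1 the median of the list was -0.12. The part of these factors in the granin levels was not tested.

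The labelled tissue was checked against its markers. Tyrosine hydroxylase (th), the first enzyme of catecholamine synthesis, was at 4868, 2558 and 3186 CPM in the knockout tumours against 1664, 3784 and 2323 CPM in MYCN-only. Dopamine beta-hydroxylase (dbh) was at 5152, 1402 and 2260 CPM against 2258, 2920 and 3135 CPM. In knockout tumour 1 these stood at 0.99 and 0.91 log2 units above the mean of the MYCN-only tumours, beside 3.74 for chga and 1.75 for chgb. Another sympathoadrenal gene, slc18a2, named after its values were seen, stood 2.15 log2 units above that mean. It was at 1215, 185 and 529 CPM in the knockout tumours against 345, 221 and 272 CPM in MYCN-only. Aromatic amino acid decarboxylase (ddc) was at 248, 104 and 153 CPM in the knockout tumours against 539, 831 and 506 CPM, and the lineage factor phox2a at 129, 189 and 193 CPM against 507, 239 and 376 CPM. Of 20 tested sympathoadrenal genes 14 were lower (median -0.6), as were 47.6% of all genes. In edgeR 0 passed, and 4 were lower at an unadjusted p under 0.05, where 7.57% of all genes were. The 21 genes measured summed to 13682 CPM in knockout tumour 1, 6159 and 8285 CPM in knockout tumours 2 and 3, and 8210 to 10028 CPM in MYCN-only. Most of the sum in knockout tumour 1 was th and dbh. Averaged over the 20 tested genes, the log2 difference from the MYCN-only mean was -0.22 in knockout tumour 1. In knockout tumours 2 and 3 it was -0.59 and -0.50.

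Markers of other tissues with granin-bearing or neighbouring cells were set beside these values. The summed level of 13 pituitary genes was 2.54 to 4.56 CPM in knockout and 8.95 to 13.4 CPM in MYCN-only, and lhb was at 0 in all libraries. In knockout tumour 1, 13 islet genes summed to 9.81 CPM, with sst2 at 0. Of 9 enteroendocrine genes, insl5a alone made 265 of the 271 CPM of knockout tumour 1, and 2 (neurod1 and insl5b) were at 0. Interrenal cells, which lie among chromaffin cells in fish and make steroids, reached 3219 CPM over 10 genes in knockout tumour 1, 734 and 825 CPM in knockout tumours 2 and 3, and 1304 to 2444 CPM in MYCN-only. Most of this was star, at 2557 CPM in knockout tumour 1. The steroid enzyme genes cyp17a1 and cyp11a1, which ovary also expresses, were instead highest in knockout tumours 2 and 3, cyp17a1 at 100.1 and 91.8 CPM. The part of interrenal cells in the granin levels was not tested. Markers of enteric neurons (12 genes, vip among them) summed to 661 CPM in knockout tumour 1, 480 and 469 CPM in knockout tumours 2 and 3, and 570 to 825 CPM in MYCN-only. Of these, phox2ba, phox2bb, ret, elavl3 and elavl4 are also on the sympathoadrenal list. The nitric oxide synthase gene nos1 was at 94.9 CPM in knockout tumour 1 and at 21.1 and 30.6 CPM in knockout tumours 2 and 3, against 11.1 to 25.8 CPM in MYCN-only, and so was highest where vip and vip2 were. The cholinergic genes chata and slc18a3a were at 0.104 and 0 CPM in knockout tumour 1, against 0.519 to 2.67 and 0.231 to 0.889 CPM in MYCN-only. The part of enteric neurons in the vip2 level was not tested. Markers of central neurons and glia (17 genes) summed to 475 CPM in knockout tumour 1, mostly snap25a at 433 CPM, 182 and 118 CPM in knockout tumours 2 and 3, and 196 to 218 CPM in MYCN-only.

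None of the genes in these lists passed in edgeR. At an unadjusted p under 0.05, where 11.5% of all genes were higher and 7.57% lower, 2 of 9 tested interrenal genes were higher and 4 lower. Of the other lists, 5 of 12 central nervous, 2 of 9 enteric and 1 of 7 islet genes tested were lower at that level. So were 1 of 5 enteroendocrine and 1 of 2 pituitary genes, and in these lists 0 were higher. The enteroendocrine gene was gip, at 0.104, 0.0747 and 0.0977 CPM in the knockout tumours against 2.4, 15.8 and 2.77 CPM in MYCN-only. It passed the low-count filter only through the MYCN-only tumours, so its direction is not a test beside the share over all genes.

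Egg transcripts were high in knockout tumours 2 and 3, where chga, scg2b, scg3 and vip2 lay below every MYCN-only tumour but chgb did not. The summed level of 23 ovary and oocyte genes was 8611 and 11130 CPM there, 35.4 CPM in knockout tumour 1 and 11.7 to 16.4 CPM in MYCN-only. All 18 tested were higher, as were 52.4% of all genes. In edgeR 0 passed, while 17 were higher at an unadjusted p under 0.05, where 11.5% of all genes were. Genes such as zp2.1, with 2, 0 and 2 counts in the MYCN-only tumours, passed the low-count filter only through the knockout tumours. For these, passing the filter already meant a higher level in knockout, so both counts are not a test beside the shares over all genes. In such bulk samples, fewer cells of a type and less RNA per cell cannot be told apart. The part of the egg RNA in the lower levels of chga, scg2b, scg3 and vip2 was not tested. Total counts ran from 20310441 to 33305326 in knockout and from 12054844 to 16624086 in MYCN-only tumours, so every knockout tumour was the deeper. The knockout tumours averaged 12.9 ± 2.56 CPM of gas7a and the MYCN-only tumours 21.8 ± 11.6 CPM (SD, n = 3 each; edgeR adjusted p = 0.411), which does not check the genotype, since the mutation is not described. The fish gene mycn had 1.3, 1.94 and 2.18 CPM in the knockout tumours, and the MYCN-only tumours had 3.55, 5.87 and 4.15 CPM. Whether reads of the transgene count there is not known here.

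Genes whose pattern was most like each member were found by Pearson correlation of log2 CPM over the 6 libraries. Placeholder symbols, such as those that start with zgc: or si:, were left out of this ranking. Knockout tumour 1 dominates every one of these values, so they describe a shared excess in 1 library. Most like chga were cldn7a (r = 0.997), dnajc3b (0.994), bhlha15 (0.992), qdpra (0.991) and bnip3lb (0.99). bhlha15 encodes Mist1, a factor of secretory cells, and was read at 97.5 CPM in knockout tumour 1 and at 3.77 and 7.1 CPM in knockout tumours 2 and 3, against 5.41 to 10.3 CPM in MYCN-only. It was also most like scg5 (r = 0.996), ahead of glod4 (0.995). qdpra encodes dihydropteridine reductase, which recycles the cofactor of tyrosine hydroxylase. It was at 546 CPM in knockout tumour 1 and at 73.6 and 101 CPM in knockout tumours 2 and 3, against 82.9 to 142 CPM. Most like scg2b was rnf175 (r = 0.994), followed by cpe (0.993). Most like scg3 were tpd52 (r = 0.998) and chmp1b (0.997), and most like vip2 were bnip3lb (0.997) and jag1a (0.996). Most like chgb were tmem144a (r = 0.98) and, ahead of it, atp6v1aa (r = 0.982), a subunit of the pump that acidifies vesicles, at 620 CPM in knockout tumour 1 and at 156 and 163 CPM in knockout tumours 2 and 3, against 118 to 216 CPM.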

How the data were processed

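The data are 6 stranded paired-end libraries of total RNA labelled as zebrafish tumour, per the labels' protocols. The submitters' processing notes name TopHat2 2.0.14, Bowtie2 2.2.6, featureCounts 1.4.6, Subread and the build danRer10. Which strand was counted, against which annotation and with what rule for multiple hits is not known here, so genes that overlap or have near copies may share reads. The deposited table holds unnormalized counts of reads, whole numbers, by gene symbol.

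Genes with low counts were dropped by edgeR's filterByExpr, which left 12821 of 14781 symbols, and libraries were scaled by TMM. Genotype was the single term of the model, and p-values of the quasi-likelihood test were adjusted by Benjamini and Hochberg over all genes, with a threshold of 0.05. A standard error is the fold change over the root of its F value. Log2 CPM has a prior count of 2. The code was tested on simulated data. No replicates were duplicates (chi-square over its degrees of freedom was 65.2 or more for every pair).

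The members and lists were chosen with earlier results of these data known. Symbols absent from the table were sought among RefSeq synonyms (GRCz12tu). The 3 genes of each pathway list with the smallest p are named. Also named are the genes most like each member, the 5 closest for chga and 2 for each other gene, leaving out placeholder symbols. The rule on the smallest p covered the lists for other cell types too, but for these only sums, counts and leading genes are given. Alternatives were TMM against RLE factors, other filters, DESeq2, limma-voom, a replicate block and leaving out tumours. R 4.3.3, edgeR 4.0.16, limma 3.58.1, DESeq2 1.42.0 and Python 3.11 were used.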

Additional observations from a re-analysis of the deposited data

How the results depend on the processing

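Of 74 alternative values for the 6 genes, 64 kept direction and side of the threshold. None of the 6 passed in edgeR over all libraries, so this tally also takes much smaller fold changes of the same sign as kept. It does not measure how stable their size was. Leaving out each library in turn gave log2 fold changes from -0.59 to 2.78 (chga), -0.059 to 1.15 (chgb), -2.08 to 6.0 (scg2b), -0.39 to 2.67 (scg3), -0.25 to 2.73 (scg5) and -2.92 to 10.83 (vip2). Every negative value was that without knockout tumour 1, and the genes called ranged from 0 to 1923. The fit without knockout tumours 2 and 3 keeps the lone library that was highest for all 6 genes, so its calls do not test the genotype. With knockout tumours 2 and 3 left out, scg3 (3.57) and vip2 (11.85) passed, so 2 of the 6 and 9 of all genes did. All genes called were 1360 in DESeq2, which gave no adjusted p for chga, scg2b, scg3 and vip2, 1 in limma-voom, 8 with the replicate block and 4 without MYCN-only tumour 2. limma-voom gave smaller values (vip2 1.36, SE 5.56; scg2b 1.0, SE 2.6). With the replicate number as a block the values of scg2b and vip2 turned to -0.49 and -0.77; the cause was not tested. Deviations of same-numbered libraries correlated at r = -0.09, -0.15 and 0.19, against -0.16 to 0.2 for differently numbered ones. So few libraries cannot show whether the numbers pair them. List medians ranged, leaving out each library, from -0.038 to 0.59 (prohormone processing), -0.30 to 0.41 (dense-core vesicles), -1.31 to 0.39 (other neuropeptides), -0.12 to 0.85 (regulators) and -1.51 to -0.57 (receptors). For knockout tumour 1 against MYCN-only they were -0.38 for other neuropeptides and -0.30 for receptors. Each fit filters anew, so the genes behind a list median can differ between fits. Depth limits the values that rest on few counts, 0 to 16 for npy and 11 and 10 for vip2 in knockout tumours 2 and 3.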
